A study of Mus musculus with 4 samples.

Results

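The transcription factors that hold mouse embryonic stem (ES) cells in the naive state were followed through differentiation into embryoid bodies (EBs). The members are 9 genes taken by name, Esrrb, Zfp42, Klf2, Klf4, Klf5, Tfcp2l1, Tbx3, Nr0b1 and Prdm14, each read by the probe set whose only annotated symbol is that gene. All 9 were found, with 1 probe set each, among 19938 genes and 21789 probe sets with a single symbol, and no probe set with several symbols held any of them. The study comprises 4 arrays of total RNA from the mouse D3 ES cell line, which is 1 line. Undifferentiated ES cells were taken at day 0 without treatment. The other arrays are EBs at day 7, grown for 2 days in hanging drops before 5 days of suspension culture, which were left untreated or were given retinoic acid (RA) or 50 nM bexarotene. RA is the ligand of the retinoic acid receptors and bexarotene a synthetic ligand of the retinoid X receptors. The RA dose is 5 µM in the labels and 10 nM in the text of the study, so RA and bexarotene were not given at matched doses. Each condition has 1 array. There is no replicate and no test, and every difference below is one between 2 arrays, with no error to set beside it.

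The naive state is the condition of the preimplantation epiblast, and ES cells are its counterpart in culture. Signals from LIF through STAT3, and from Wnt through the relief of repression by Tcf7l1, sustain a network of transcription factors that keeps the core factors Pou5f1 and Nanog active. Cells leaving this state shut the network down before they form the germ layers. Klf2, Klf4 and Klf5 are zinc finger factors with overlapping targets. Klf4 is known as a target of LIF and STAT3, as is Tfcp2l1, a CP2 family factor. Esrrb is an orphan nuclear receptor and a target of the Wnt branch. Nr0b1 is an orphan nuclear receptor without the usual DNA-binding domain and acts mostly as a corepressor. Zfp42, also called Rex1, is a zinc finger protein widely used as the marker of naive cells, Tbx3 is a T-box factor, and Prdm14 represses FGF signaling and DNA methyltransferases and has a part in germ cell specification.

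The values are log2 signal as normalized by the authors, with array medians between 6.66 and 6.69 over all probe sets. The label of the ES cell array was checked against the core factors: Pou5f1 stood at 11.67, Nanog at 11.65 and Sox2 at 11.43 there, the highest value of each among the 4 arrays. In untreated EBs they stood at 8.78, 9.18 and 11.02. Sall4, the other core factor read, was not highest in ES cells, at 11.25 against 11.33 in untreated EBs. A threshold of 1.5-fold, 0.585 on the log2 scale, was used to call a gene higher or lower. Levels of different genes were not ranked against each other, since probe sets differ in their response. Single levels were placed only against the array median and quartiles over all probe sets, as rough marks of weak or strong signal. The median over genes with 1 symbol was higher, between 7.20 and 7.30.

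Between untreated EBs and ES cells all 9 factors were past 1.5-fold lower in the EBs, where 8.52% of all genes were, and all 9 were past 2-fold lower, where 3.5% of all genes were. Their median log2 difference was -2.06, against -0.04 over all genes. The members were chosen as genes of ES cells, which largely sets the direction of these differences. The 9 genes spread over a wide range, from 2.96-fold to 26.0-fold lower. Since bulk RNA was measured, fewer cells of a type and less RNA per cell cannot be told apart.

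Nr0b1 had the largest loss. ES cells gave a log2 signal of 12.07, untreated EBs 7.37, RA-treated EBs 8.74 and bexarotene-treated EBs 8.22. The ES cell array was thus far above the 3 EB arrays, and the untreated EB array was the lowest. The untreated EBs were 26.0-fold lower than ES cells, a log2 difference of -4.70, and no other of the 19938 genes had a lower difference. With bexarotene the log2 difference from ES cells was -3.85, again the lowest of all genes, and with RA it was -3.33, with 5 genes lower.

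Zfp42 stood at a log2 signal of 10.07 in ES cells, 6.14 in EBs without ligand, 6.80 with RA and 6.50 with bexarotene. It was 15.2-fold lower in untreated EBs, with 2 genes of the whole table lower still. Its signal in untreated and bexarotene-treated EBs lay below the median of the array, where a log2 difference is most compressed by background.

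Esrrb stood at a log2 signal of 10.92 in ES cells, 7.40 in EBs without ligand, 8.10 with RA and 7.78 with bexarotene. It was 11.5-fold lower than ES cells in untreated EBs. Tfcp2l1 stood at 10.78 in ES cells, 7.85 in EBs without ligand, 8.48 with RA and 8.38 with bexarotene, and was 7.64-fold lower than ES cells in untreated EBs. These 4 genes, Nr0b1, Zfp42, Esrrb and Tfcp2l1, were the only members more than 5-fold lower in untreated EBs.

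The other 5 factors differed less. Prdm14 stood at a log2 signal of 8.06 in ES cells, 6.00 in EBs without ligand, 6.15 with RA and 6.28 with bexarotene, so it was 4.18-fold lower in untreated EBs and below the array median in all 3 EB arrays. Klf2 stood at 9.21 in ES cells, 7.42 in EBs without ligand, 7.63 with RA and 7.59 with bexarotene, 3.46-fold lower in untreated EBs. Tbx3 stood at 10.55, 8.85, 9.12 and 8.97 in the same order of arrays, 3.23-fold lower. The EB arrays of these genes lay close together and well under the ES cell array.

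Klf5 stood at a log2 signal of 11.72 in ES cells, 10.15 in EBs without ligand, 10.47 with RA and 10.31 with bexarotene. Klf4 stood at 10.34 in ES cells, 8.77 in EBs without ligand, 8.99 with RA and 8.82 with bexarotene. Both were 2.96-fold lower than ES cells in untreated EBs, the smallest loss among the 9, and both remained above the upper quartile of the EB arrays, which lay between 8.65 and 8.70.

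**Figure D1:**
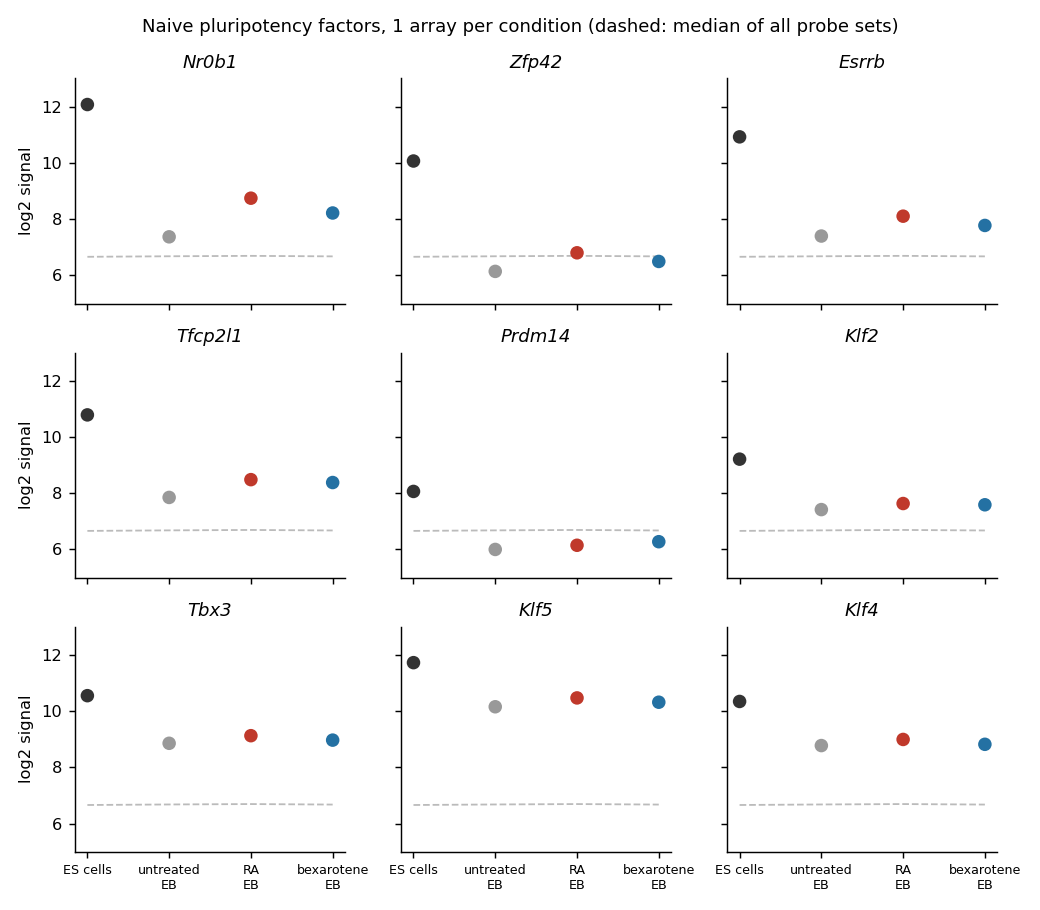
Log2 signal (y axis) of the 9 naive pluripotency factors on each of the 4 arrays (x axis), 1 point per array, with the median of all probe sets as a dashed line. Each factor is highest in ES cells and lowest in untreated EBs, from 12.07 to 7.37 for Nr0b1 and from 10.34 to 8.77 for Klf4.

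On the linear scale, the signal left in untreated EBs was 3.84% of that in ES cells for Nr0b1, 6.59% for Zfp42, 8.69% for Esrrb and 13.1% for Tfcp2l1. It was 24.0% for Prdm14, 28.9% for Klf2, 30.9% for Tbx3 and 33.7% for both Klf4 and Klf5. The 9 genes therefore did not keep 1 common share of their ES cell signal. With RA the share ran from 9.95% for Nr0b1 to 41.9% for Klf5, and with bexarotene from 6.91% for Nr0b1 to 37.7% for Klf5. These shares take the deposited signal as it stands, and background left in a weak signal makes them too high.

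**Figure D2:**
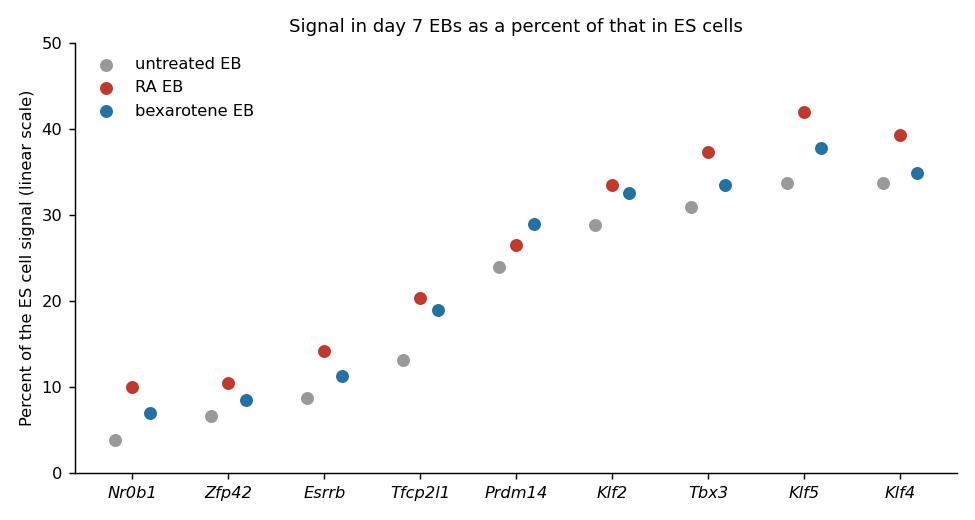
Signal of each factor in the 3 EB arrays (untreated, RA and bexarotene) as a percent of its signal in ES cells on the linear scale (y axis), with 1 point per array. Nr0b1 lies at 3.84% in untreated EBs and at 9.95% with RA, and Klf5 at 33.7% and 41.9%.

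All 9 factors stayed past 1.5-fold lower than in ES cells when a ligand was given. With RA the share of all genes past this threshold was 9.19%, and 3.38% were past 2-fold, as all 9 factors were. The median of the 9 log2 differences was -1.91. With bexarotene the shares of all genes were 9.69% past 1.5-fold and 3.7% past 2-fold, all 9 factors were past both, and their median was -1.79. These 2 comparisons and that of untreated EBs share the 1 ES cell array.

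Relative to untreated EBs, 4 of the 9 factors were past 1.5-fold higher with RA, where 2.07% of all genes were, and none was past it lower, where 2.22% of all genes were. Nr0b1 was 2.59-fold higher and was the only member past 2-fold, where 0.657% of all genes were. Its log2 difference was 1.37, with 76 genes of the table higher. Esrrb was 1.63-fold higher, Zfp42 1.58-fold and Tfcp2l1 1.55-fold. These are the 4 members that were lowest in untreated EBs relative to ES cells, and both sets of differences use the 1 untreated array.

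The other 5 factors were higher with RA by less than the threshold. Klf5 was 1.24-fold higher, Tbx3 1.21-fold, Klf4 and Klf2 both 1.16-fold and Prdm14 1.11-fold. A positive difference was thus found for 9 of 9 factors, where 49.8% of all genes had one. The median was 0.31 on the log2 scale, against 0.00 over all genes, and 0.47 over the 8 members left without dim probe sets, which removed Prdm14. The robust standard deviation of this difference over all genes was 0.172. The differences of Klf2, Klf4 and Prdm14, between 0.15 and 0.22, were of that size.

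With bexarotene, 1 of the 9 factors was past 1.5-fold higher than in untreated EBs, where 1.48% of all genes were, and none was past it lower, where 2.15% of all genes were. This factor was Nr0b1, at 1.80-fold. None was past 2-fold higher, where 0.502% of all genes were. Tfcp2l1 was 1.44-fold higher, Esrrb 1.30-fold, Zfp42 1.28-fold and Prdm14 1.21-fold. The remaining 4, Klf2, Klf5, Tbx3 and Klf4, lay between 1.03-fold and 1.13-fold. A positive difference was found for 9 of 9 factors, where 48.0% of all genes had one, with a median of 0.28 on the log2 scale against -0.008 over all genes. The robust standard deviation of this difference over all genes was 0.167. The differences of Klf4 (0.04), Tbx3 (0.11), Klf5 (0.16) and Klf2 (0.17) were of that size or smaller. Without dim probe sets, which removed Zfp42 and Prdm14, the median of the members left was 0.17, also of that size. Both ligand comparisons rest on the same untreated array, so they are not independent of each other.

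**Figure D3:**
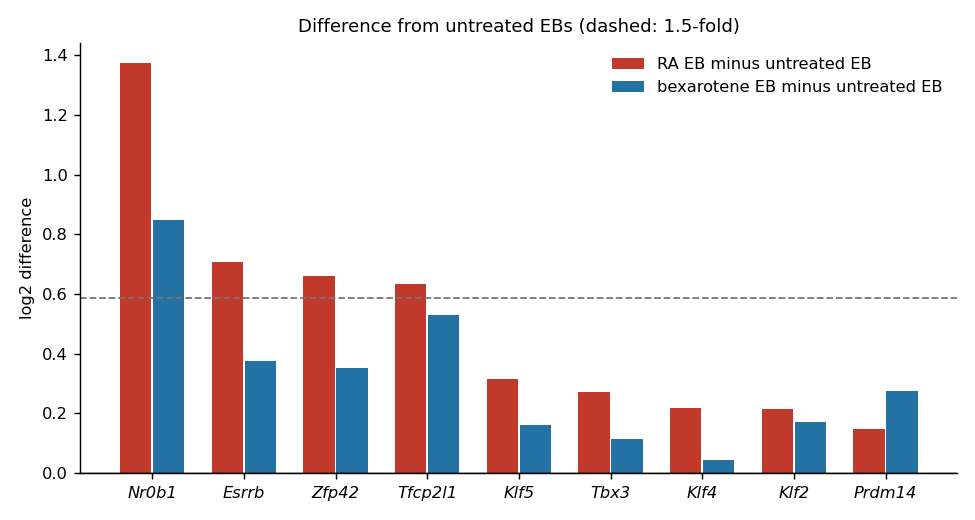
Log2 difference (y axis) of RA-treated and bexarotene-treated EBs from untreated EBs for the 9 factors, 1 bar per pair of arrays, with 1.5-fold as a dashed line. Nr0b1 stands highest with both ligands, at 1.37 and 0.85, and Esrrb, Zfp42 and Tfcp2l1 pass the line with RA alone.

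Between the ligands none of the 9 factors was past 1.5-fold in either direction, where the shares of all genes were 0.196% higher with bexarotene and 0.296% lower. The median of bexarotene minus RA was -0.16 on the log2 scale, against -0.01 over all genes. A negative difference was found for 8 of 9 factors, where 54.0% of all genes had one. Nr0b1 had a log2 difference of -0.53 between bexarotene and RA, with 78 genes lower, Esrrb of -0.33 and Zfp42 of -0.31. Prdm14 alone was higher with bexarotene than with RA, by 0.13 on the log2 scale. The robust standard deviation of this difference over all genes was 0.115, so the values of Klf2 (-0.04) and Tfcp2l1 (-0.10) were inside it. Since doses were not matched, the values stand side by side and give no comparison of potency.

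In order of level, 8 of the 9 factors ran from ES cells to RA, to bexarotene and to untreated EBs, where 8.61% of all genes showed that order. That share covers all genes, while the members were chosen as genes of ES cells, which largely sets the first place. The order of the EB arrays restates the differences above. Prdm14 ran from ES cells to bexarotene, to RA and to untreated EBs. The step from ES cells to the nearest EB array was at least 1.25 on the log2 scale for each member, whereas the steps between EB arrays were below 0.585 except between untreated and RA-treated EBs for 4 genes and between untreated and bexarotene-treated EBs for Nr0b1.

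The start regions of the 4 factors past 1.5-fold higher with RA are shown, though all 9 factors were higher with RA. The 4 were chosen by this threshold, after their values were seen. Sequences are from RefSeq (GRCm38.p6), from 250 bases before to 50 bases after the annotated start, and Esrrb has 2 annotated starts. The windows are chrX:86191525-86191824 on the plus strand for Nr0b1, chr8:43306960-43307259 on the minus strand for Zfp42, chr1:118627695-118627994 on the plus strand for Tfcp2l1, and chr12:86360867-86361166 and chr12:86421394-86421693, both on the plus strand, for Esrrb. They read 5′ to 3′ along the gene, and capitals mark matches to the searched motifs on either strand, named after the sequences.
Nr0b1: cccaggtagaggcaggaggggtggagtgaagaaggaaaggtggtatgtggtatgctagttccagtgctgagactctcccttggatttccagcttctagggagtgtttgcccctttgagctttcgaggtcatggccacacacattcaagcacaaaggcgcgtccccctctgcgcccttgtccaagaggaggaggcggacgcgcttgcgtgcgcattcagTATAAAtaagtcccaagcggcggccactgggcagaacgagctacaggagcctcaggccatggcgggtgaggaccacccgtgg
Zfp42: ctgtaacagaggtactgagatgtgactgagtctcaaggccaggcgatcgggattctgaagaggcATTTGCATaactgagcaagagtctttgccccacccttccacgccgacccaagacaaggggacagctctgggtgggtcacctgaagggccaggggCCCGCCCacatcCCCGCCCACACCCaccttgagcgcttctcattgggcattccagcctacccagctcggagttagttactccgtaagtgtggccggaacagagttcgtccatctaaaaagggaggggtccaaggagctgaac
Tfcp2l1: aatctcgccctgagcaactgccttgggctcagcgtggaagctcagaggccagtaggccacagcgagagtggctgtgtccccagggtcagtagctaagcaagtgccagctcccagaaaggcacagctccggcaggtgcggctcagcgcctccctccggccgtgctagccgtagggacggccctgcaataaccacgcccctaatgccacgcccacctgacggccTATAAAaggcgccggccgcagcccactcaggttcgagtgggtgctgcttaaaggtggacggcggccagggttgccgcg
Esrrb upstream start: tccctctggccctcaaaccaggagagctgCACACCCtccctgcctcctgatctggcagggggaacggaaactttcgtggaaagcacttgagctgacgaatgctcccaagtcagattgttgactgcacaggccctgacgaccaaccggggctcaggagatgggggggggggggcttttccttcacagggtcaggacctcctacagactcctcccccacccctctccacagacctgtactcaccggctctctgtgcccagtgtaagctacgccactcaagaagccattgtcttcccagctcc
Esrrb downstream start: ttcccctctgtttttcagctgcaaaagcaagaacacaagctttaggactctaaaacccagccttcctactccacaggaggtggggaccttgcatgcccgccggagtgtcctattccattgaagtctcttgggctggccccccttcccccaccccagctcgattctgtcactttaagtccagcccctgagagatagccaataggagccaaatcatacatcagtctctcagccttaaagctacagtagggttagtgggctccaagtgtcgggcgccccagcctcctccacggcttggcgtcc

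The TATA box letters TATAAA began 32 bases before the start of Nr0b1 and 28 bases before that of Tfcp2l1, and are in 13.6% of all 32851 windows. Zfp42 holds the octamer ATGCAAAT, the site read by Pou5f1 and other POU factors, on the opposite strand, printed as its reverse complement ATTTGCAT. It begins 186 bases before the start, and 1.74% of all windows hold the octamer on either strand. Zfp42 also holds 2 matches to the GC box GGGCGGG, which KLF and SP factors bind and which is in 25.6% of all windows, and 1 match to the CACCC box, written GGGTGTG here and in 7.95%, which as printed shares its first letter with the end of the second GC box. The upstream window of Esrrb holds 1 CACCC box and the downstream window no match. Of the members that were not past 1.5-fold with RA, Klf2 holds 2 GC boxes and Klf4 holds 4, of which a pair overlap each other.

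None of the 7 windows of 6 members held the DR5 or DR2 element, direct repeats of AGGTCA at the spacings known for receptors of RA, each of which is in 0.00913% of all windows. None held the Esrrb letters TCAAGGTCA (0.423% of all windows), the STAT3 letters TTCCNGGAA (1.15%) or the Tfcp2l1 motif, a repeat of CCAG (3.44%). Both strands were searched. A match is a description of the letters, and no match says nothing about binding outside or inside the window.

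The relatives of the members were read next, to see whether a loss was shared by the family. Of 14 other Klf genes, 3 were past 1.5-fold lower than ES cells in untreated EBs and 1 was past it higher. The shares of all genes were 8.52% lower and 11.0% higher. Klf9 had a log2 difference of -2.01, a larger loss than that of Klf2, Klf4 or Klf5, and Klf15 and Klf10 had -0.81 and -0.64. Klf6 was higher, by 0.80. Klf12 passed the threshold with bexarotene against ES cells (-0.68), and Klf16 with both ligands against ES cells (-0.68 with RA, -0.67 with bexarotene). None of the 17 Klf genes was past 1.5-fold between either ligand and untreated EBs. Of all genes 2.07% were past it higher and 2.22% lower with RA, and 1.48% and 2.15% with bexarotene. None among 17 genes is near those shares and does not set the family apart.

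Of the other Esrr genes, neither Esrra (-0.24) nor Esrrg (-0.05) was past the threshold in untreated EBs against ES cells. Esrrg, an orphan receptor of the same subgroup, was higher with RA than in untreated EBs by a log2 difference of 0.86, against 0.38 with bexarotene. Its signal was 6.41 in ES cells, 6.36 in EBs without ligand, 7.23 with RA and 6.74 with bexarotene, so RA-treated EBs were above ES cells, unlike Esrrb. Nr0b2, the relative of Nr0b1, had a difference of -0.31 between untreated EBs and ES cells and 0.08 with RA. Yy1, from which Zfp42 is thought to derive, had a difference of 0.18.

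Of 5 relatives of Tfcp2l1, the grainyhead genes Grhl3 (-1.96), Grhl2 (-0.91) and Grhl1 (-0.75), factors of epithelia, were past 1.5-fold lower than ES cells in untreated EBs (8.52% of all genes). Tfcp2 was not (0.54), though it passed the threshold with RA against ES cells (0.62), and Ubp1 had a difference of -0.19. Of 14 other T-box genes read, Tbx20 (1.71) and Tbx1 (1.54), genes of the heart and pharynx, were past it higher in untreated EBs. Mga was lower (-0.61), where 11.0% of all genes were higher and 8.52% lower. T (brachyury) and Tbx10 were listed but not found under those symbols, so they are missing from this count. The study's text reports T as higher in untreated EBs than in ES cells and reduced by both ligands. With RA, Tbx1 (-1.17) and Tbx20 (-0.65) were past 1.5-fold lower than in untreated EBs and Tbx15 (0.62) was higher, while bexarotene gave -0.75 for Tbx1 and -0.93 for Eomes. Of 12 other Prdm genes none was past 1.5-fold lower in untreated EBs (8.52% of all genes). Mecom (1.59), Prdm6 (1.32) and Prdm9 (0.70) were past it higher (11.0% of all genes). Prdm8 was past 1.5-fold higher with RA than in untreated EBs (0.89) and Prdm1 past it lower (-0.72). With RA 2.07% of all genes were past it higher and 2.22% lower, and with bexarotene 1.48% and 2.15%.

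**Figure D4:**
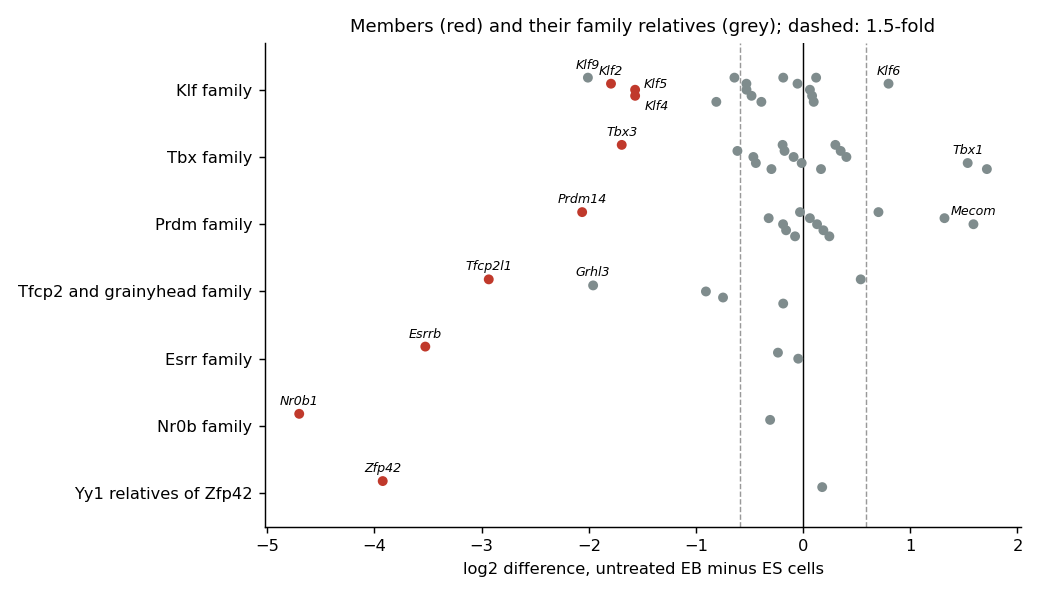
Log2 difference between untreated EBs and ES cells (x axis) for each gene of the 7 families (y axis), with the 9 members in red, relatives in grey and 1.5-fold as dashed lines. Klf9 (-2.01) and Grhl3 (-1.96) lie among the members, while Klf6 (0.80), Tbx1 (1.54) and Mecom (1.59) lie on the other side.

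The rest of the network was read from lists of genes. Of 16 other genes of the naive state and of ES cells, 15 were past 1.5-fold lower than ES cells in untreated EBs, where 8.52% of all genes were. The list was chosen as genes of ES cells, which largely sets that count. The median log2 difference was -2.41, against -0.04 over all genes. The largest were Tdgf1, a Nodal coreceptor (-3.71), Fgf4, the growth factor that ES cells secrete (-3.12), Dppa4 (-3.08) and the orphan nuclear receptor Nr5a2 (-2.91). Dppa3, a maternal factor that marks part of naive cultures, was the exception, with a signal of 5.65 in ES cells and 5.48 in untreated EBs. It was therefore low in the ES cells themselves, near the array's lower quartile of 5.19.

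With RA, none of these 16 genes was past 1.5-fold lower than in untreated EBs, where 2.22% of all genes were, and their median was 0.63. Past it higher were 9, where 2.07% of all genes were. They were Jam2, a junctional adhesion molecule (1.72), Dppa2 (1.19), Lefty1 (0.97), Utf1 (0.92), Dppa5a (0.79), Tdgf1 (0.74), Lefty2 (0.69), Fgf4 (0.67) and Gbx2 (0.60). With bexarotene, Jam2 (1.37), Dppa2 (0.82), Utf1 (0.79), Lefty1 (0.79) and Gbx2 (0.76) were past it higher, where 1.48% of all genes were. Zscan10, a zinc finger factor of ES cells, was past it lower (-0.75), where 2.15% of all genes were. The median of the 16 genes with bexarotene was 0.42.

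Of the 4 core factors, Pou5f1 (-2.90) and Nanog (-2.47) were past 1.5-fold lower than ES cells in untreated EBs, where 8.52% of all genes were. Sox2 (-0.41) and Sall4 (0.08) were not. With RA, Nanog (0.72) and Pou5f1 (0.64) were past it higher than without ligand, where 2.07% of all genes were. With bexarotene the differences from untreated EBs were 0.41 for Nanog, 0.08 for Sox2, 0.04 for Pou5f1 and -0.57 for Sall4. Pou5f1 was past 1.5-fold lower with bexarotene than with RA, at -0.60, where 0.296% of all genes were. That is just beyond the threshold, and Nr0b1 at -0.53 lay inside it.

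Of 12 genes of the formative and primed epiblast, the stages after the naive state, 4 were past 1.5-fold higher and 3 lower than ES cells in untreated EBs. The shares of all genes were 11.0% higher and 8.52% lower. Fgf5 (2.09), Otx2 (1.82), Zic2 (1.59) and Lin28b (1.53) were higher, and the FGF targets Etv4 (-2.91) and Etv5 (-1.74) and the factor Grhl2 (-0.91) were lower. With RA, Otx2 (-1.35) and Fgf5 (-0.66) were past 1.5-fold lower than in untreated EBs and Etv5 was higher (0.63). With bexarotene, Otx2 (-1.99), Fgf5 (-1.53) and the de novo DNA methyltransferase gene Dnmt3b (-0.67) were lower. Past it lower were 2.22% of all genes with RA and 2.15% with bexarotene, and past it higher 2.07% and 1.48%. The median of the 12 genes was -0.11 with RA and -0.25 with bexarotene, where that of the 9 naive factors was 0.31 and 0.28.

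The signaling inputs to the network were read in the same way. Of 9 genes of LIF and STAT3 signaling, 4 were past 1.5-fold lower than ES cells in untreated EBs, where 8.52% of all genes were. They were the feedback inhibitor Socs3 (-1.78), the kinases Pim3 (-1.21) and Pim1 (-0.68), which are STAT3 targets, and Stat3 itself (-0.76). The receptor genes Lifr (-0.21) and Il6st (-0.37) were not. No gene of this list was past 1.5-fold with a ligand, which for 9 genes is near the shares of all genes. Those were 2.07% higher and 2.22% lower with RA, and 1.48% and 2.15% with bexarotene. Of 8 genes of Wnt signaling, 4 were past 1.5-fold higher in untreated EBs than in ES cells, where 11.0% of all genes were. These were Tcf7l2 (1.89), Lef1 (1.39), Axin2 (0.97) and Gsk3b (0.70). Lef1 was past 1.5-fold lower with RA (-0.95) and bexarotene (-1.19) than in untreated EBs. Tcf7l1, which represses the naive genes, had differences of 0.36 in untreated EBs against ES cells and -0.25 with either ligand.

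Of 12 genes of FGF and ERK signaling, 6 were past 1.5-fold lower than ES cells in untreated EBs and 2 were higher. The shares of all genes were 8.52% lower and 11.0% higher. The feedback inhibitor Spry4 (-3.36), Fgf4 (-3.12) and Etv4 (-2.91) were the lowest, and the receptor gene Fgfr2 (2.03) was the highest. With RA, Fgf4 (0.67) and Etv5 (0.63) were past it higher than in untreated EBs, where 2.07% of all genes were. With bexarotene the ERK targets Dusp4 (-0.86) and Egr1 (-0.81) were past it lower, where 2.15% were. Of 11 genes with a known part in the exit from the naive state, 3 were past 1.5-fold lower in untreated EBs, where 8.52% of all genes were. They were Nf2 (-0.80), Jarid2 (-0.76) and Tfe3 (-0.71). None of the 11 was past it with a ligand, which is near the shares of all genes. Those were 2.07% higher and 2.22% lower with RA, and 1.48% and 2.15% with bexarotene. Tfe3 itself is known to hold cells in the naive state while it is in the nucleus, and other genes of the list keep it out.

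**Figure D5:**
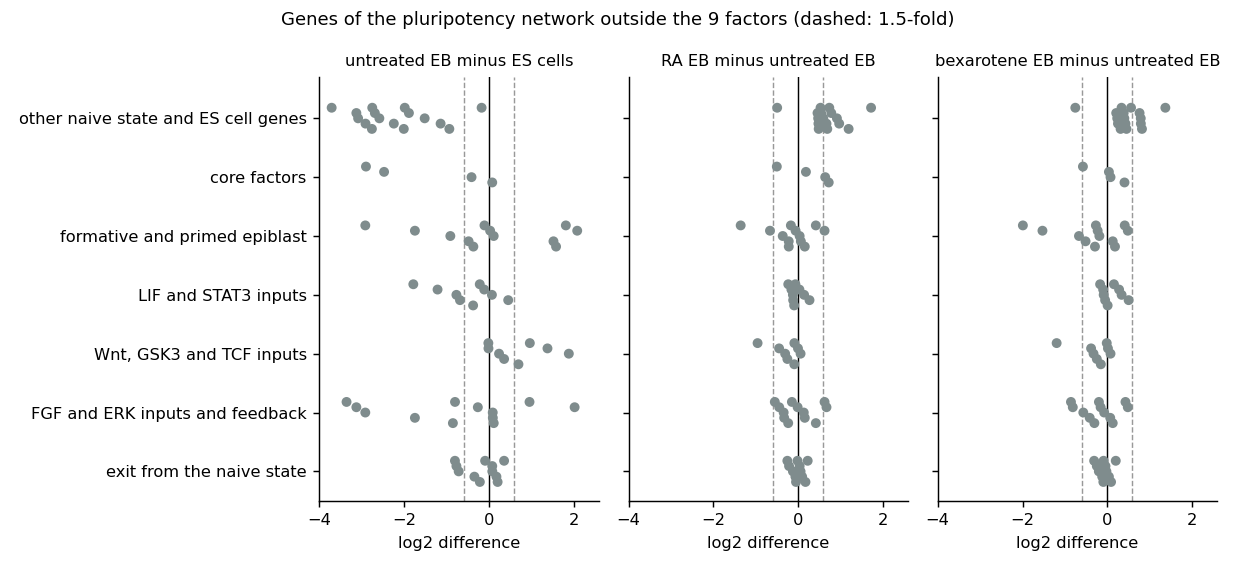
Log2 differences (x axis) of the genes of 7 lists (y axis) for untreated EBs minus ES cells and for RA-treated and bexarotene-treated minus untreated EBs, 1 point per gene, with 1.5-fold as dashed lines. The naive state and ES cell genes lie to the left in the first panel (median -2.41) and mostly to the right with RA (median 0.63).

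The genes most like each member were found by the Euclidean distance between log2 profiles over the 4 arrays, each centred on its own mean. With 4 arrays of which 1 is far from the others, this mostly matches the size of the loss. Nr0b1 had no gene within 0.25, and its nearest was Laptm5 (0.56), followed by Tdgf1 (0.72) and Zfp640 (0.75). Esrrb was nearest to Tdgf1 (0.14), Bin2 (0.16) and Spry4 (0.24), and Zfp42 to Laptm5 (0.18), Cbr3 (0.24) and Tdgf1 (0.25). Tfcp2l1 was nearest to Inpp5d (0.06), a phosphatase of blood and ES cells, then to Pcolce (0.12) and Ooep (0.19).

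The members with smaller losses had many genes as close. Within 0.25 there were 93 genes for Klf2, 121 for Klf4, 123 for Klf5, 104 for Tbx3 and 51 for Prdm14, so their nearest genes are not set apart. Klf2 was nearest to Ubash3a, Ttpa and Smad7 (each at 0.05 or 0.06), Klf4 to Larp1b, Slc5a11 and Mapkapk3 (0.06 to 0.07) and Klf5 to Sfrp4, Gm10139 and Sned1 (0.05 to 0.06). Tbx3 was nearest to Castor1, Dennd2c and Slc5a11 (0.05 to 0.07), and Prdm14 to Calhm5, Stac2 and Necab1 (0.04 to 0.07). Among the members, Klf4 and Tbx3 were the closest pair, at 0.09.

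Several members are also made outside the epiblast, in endothelium (Klf2), epithelia (Klf4, Klf5), extraembryonic tissue and heart (Tbx3, Esrrb) and germ cells (Prdm14), so markers of these and other cell types were read beside them. Their part in the levels of the 9 factors was not tested. Against ES cells, untreated EBs were past 1.5-fold higher for 6 of 9 markers of extraembryonic endoderm, 4 of 7 of epithelium, 4 of 8 of fibroblasts, 4 of 7 of neural cells, 3 of 6 of heart, 3 of 8 of endothelium, 1 of 6 of trophoblast and 1 of 8 of germ cells, where 11.0% of all genes were. Past 1.5-fold lower were 3 of 8 markers of germ cells, 2 of 6 of trophoblast, 2 of 8 of endothelium, 1 of 7 of neural cells and 1 of 8 of fibroblasts, where 8.52% of all genes were. The mean log2 signal of the neural markers was 7.03 in ES cells, 7.37 in EBs without ligand, 9.02 with RA and 8.66 with bexarotene, and 6 of 7 were past 1.5-fold higher with each ligand than in untreated EBs (2.07% of all genes with RA, 1.48% with bexarotene). That of extraembryonic endoderm was 7.89, 9.07, 9.34 and 9.25 in the same order, with Foxq1 past 1.5-fold higher with RA.

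RA was the condition in which 8 of the 9 naive factors were highest among EBs. From untreated to RA-treated EBs the mean log2 signal went from 7.15 to 6.72 for endothelium, from 10.60 to 10.15 for epithelium, from 7.80 to 7.31 for fibroblasts, from 7.89 to 7.08 for heart and from 7.38 to 7.21 for trophoblast. That of germ cells went from 6.85 to 6.98, with Ddx4 past 1.5-fold higher (0.65) and Prdm1 lower (-0.72). No marker is at 0, since these arrays give a signal to every probe set. The 3 ES cell markers, the core factors Pou5f1, Nanog and Sox2, went from 9.66 in untreated EBs to 10.18 with RA and 9.83 with bexarotene. With RA 2 of 3 were past 1.5-fold higher, where 2.07% of all genes were. These are the Nanog and Pou5f1 values already counted among the core factors.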

How the data were processed

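Biotin-labelled cDNA from 300 ng of total RNA per culture was hybridised to 4 Affymetrix arrays, 1 per condition, grouped by GEO labels. The deposited values are log2 signal for 35556 probe sets, which the authors background-corrected, normalized across arrays and summarized in Affymetrix Expression Console, by GC-RMA per the labels and by RMA per the study's text. Which applies was not settled, and they treat weak signals differently. The genome build behind the deposited values is not given in the sources used here. Platform annotation gives 1 symbol for 21789 probe sets, which were used. The 1621 with several symbols and 12146 unnamed ones entered only the array medians and quartiles, the floor and the normalizations. The 9 members matched RefSeq by gene ID, and 6 have start region sequences. A gene stood by its probe set with the highest mean. Log2 differences were counted past 1.5-fold, the study's threshold, in 6 comparisons, and 14 gene lists and 9 marker lists were counted likewise. No test can be made without replicates, and the number of arrays limits the precision. Members and lists were chosen with earlier results of these data known. Named were the members, the 3 nearest genes of each, genes of each list with the largest difference of untreated EBs from ES cells or past the threshold with a ligand, and relatives past it in any comparison. The list genes given without meeting this rule, such as Lifr, Il6st, Tcf7l1, Dppa3 and Yy1, were chosen after their values were seen. Alternatives were a threshold of 2-fold, quantile normalization, loess against the mean array (span 0.3), centring, a floor at the 25th percentile, probe set means and leaving out dim probe sets. A difference counted as moved beyond 0.115, the robust standard deviation between the ligand arrays. Counting was tested on simulated data. Python 3.11.15, pandas 2.3.3 and statsmodels 0.14.6 were used.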

Additional observations from a re-analysis of the deposited data

How the results depend on the processing

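All 320 member differences recomputed under quantile normalization, loess, centring, the floor, probe set means and without dim probe sets kept their sign, and 319 stayed on the same side of 1.5-fold. The exception was Tfcp2l1 with bexarotene against untreated EBs, which passed the threshold under quantile normalization (0.59), so that 2 members were past it higher in place of 1. At 2-fold, 1 member was higher with RA and 0 with bexarotene than in untreated EBs. Without probe sets below the median of both arrays, which removed Prdm14 and left 8 members, the median difference with RA was 0.47. With bexarotene against untreated EBs the same rule removed Zfp42 as well, and the median difference was 0.17. The other 116 of 120 recomputed counts and medians of the members stayed within the limits set. Of 276 counts of list genes, 205 stayed within 1.5 times at a threshold of 2-fold. No paired analysis was possible because each condition has 1 array, and for the same reason no array could be left out. Signals below the array median, those of Prdm14 in all EBs and of Zfp42 in untreated and bexarotene-treated EBs, limit how small a residual level can be told from background.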

Other observations

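Some genes of the lists did not follow the naive factors. Sall4, which was as high in untreated EBs as in ES cells (log2 signal 11.33 and 11.25), stood at 10.83 with RA and 10.76 with bexarotene, and Zscan10 went from 10.34 in ES cells to 9.41 without ligand, 8.92 under RA and 8.66 under bexarotene. For both genes the ligand-treated EBs were the lowest arrays, where untreated EBs were the lowest for all 9 naive factors. Jam2 differed from its ES cell level by -2.69 on the log2 scale without ligand, by -0.96 under RA and by -1.32 under bexarotene.

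Neurod1, a proneural factor, had a log2 signal of 8.28 in ES cells, 6.11 in EBs without ligand, 8.13 with RA and 7.78 with bexarotene, so that it was higher in ES cells than in any EBs, unlike the neural genes Pax6 (6.29 in ES cells), Dcx (5.18) and Elavl4 (5.41), which were lowest there. Tubb3, of the same list, was lowest in untreated EBs, by a log2 difference of -0.52 from ES cells, and highest with RA (8.56). Pecam1 and Tek, read here as endothelial markers, had log2 differences of -2.30 and -1.22 between untreated EBs and ES cells, where Cdh5 and Emcn had 2.14 and 2.03. These are values of single arrays.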
